A study of Homo sapiens with 12 samples.

Results

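MiaPaca2 cells with the DMSO media label were compared with HT29 cells with the same label, on 2 arrays of each line. These 4 arrays were chosen by their titles, MiaPaca2 DMSO 1 and 2 and HT29 DMSO 2 and 4, from 12 arrays of 8 human tumour cell lines. The series title concerns tissue factor, the protein encoded by F3 that starts blood clotting, in mice carrying human pancreatic tumours. MiaPaca2 is an established line from a pancreatic carcinoma. HT29 is an established line catalogued as colorectal, although the design text calls all 8 lines pancreatic. DMSO, a common solvent for drugs, stands in the media field of both groups, and neither its dose nor its time was given. The labels name no engineered allele, drug or separate culture for either group. A p-value here therefore reflects variation among these arrays, and that variation may be technical. Another MiaPaca2 array without a media label and 7 arrays of 6 further lines, Panc1, Capan2, HPAC, HPAFII, HCT-116 and SW620, were used for comparison only.

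Each array measured the RNA of a cell line, labelled with Cy5, beside a common reference of whole human RNA, labelled with Cy3. A value is the deposited ratio of a gene, read here as a log2 value with the cell line on top. This direction is the likely one, though no source states it. With the ratio turned, every sign below would turn. A difference is the MiaPaca2 mean minus the HT29 mean on this log2 scale, and a difference of 2 units is a 4-fold change. A gene was called where the limma model fitted to all arrays and genes gave an adjusted p under 0.05. Of 18334 genes 5851 were called (31.9%), 3191 higher (17.4%) and 2660 lower (14.5%) in MiaPaca2. In 11612 genes (63.3%) the arrays of the 2 lines did not overlap, with MiaPaca2 above HT29 in 33.7% of genes and below it in 29.6%. The text dwells on the 1523 genes (8.31%) that were called, did not overlap and differed by at least 2 units, called large here. They split almost evenly into 754 higher (4.11%) and 769 lower (4.19%). Members of the gene lists below were chosen with earlier results of these data known. The shares of a list therefore describe it and test nothing. The 2 MiaPaca2 arrays correlated at 0.874 across genes, the 2 HT29 arrays at 0.924, and HT29 with MiaPaca2 arrays at 0.426 to 0.448.

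Colon epithelium is built of absorptive cells, which carry a brush border and ion channels, and of goblet cells, which make mucus. Both depend on factors of the GATA, FOXA, HNF4 and KLF families and on large sets of sugar-adding enzymes. Tumour lines keep such programmes to different degrees.

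The labels were checked against genes that mark the lines. EPCAM, an epithelial adhesion gene, had log2 ratios of -5.76 and -5.39 in MiaPaca2, against 3.26 and 3.58 in HT29. VIM, the filament gene of mesenchymal cells, stood at 2.27 and 1.83 in MiaPaca2, against -4.80 and -4.61 in HT29. VIL1, a gene of the intestinal brush border, was at -2.33 and -2.12 in MiaPaca2 and at 1.58 and 1.78 in HT29. All 3 genes separated the lines without overlap. The intestinal master factor gene CDX2 separated them less, with 0.67 and 0.94 in MiaPaca2 against 1.33 and 1.09 in HT29, and did not pass the test (limma, adjusted p = 0.2198). Of 5 fibroblast markers 4 in MiaPaca2 and 5 in HT29 lay below the reference. Of 4 immune markers only 2 lay below it in each line, and of 3 endothelial markers 2 in each line. The defining leukocyte gene PTPRC was at -2.56 and -2.38 in MiaPaca2, against -2.56 and -2.65 in HT29. CD14, another immune marker, was above the reference on all 4 arrays, at 0.17 and 0.95 in MiaPaca2 and at 1.19 and 0.58 in HT29. Of 12 fibroblast, immune and endothelial markers 3 were called higher in MiaPaca2 (25%) and none lower, beside 17.4% and 14.5% over all genes. The 3 were CD68 by 2.12, COL3A1 by 1.40 and PDGFRB by 0.80, and their part in the results was not tested. The values are of RNA from whole cultures, in which fewer cells expressing a gene and less RNA per cell cannot be told apart. F3 itself, read by 1 feature, was at -0.17 and -0.54 in MiaPaca2 against 1.12 and 1.26 in HT29, a difference of -1.55 (SE 0.269, limma, adjusted p = 0.003078).

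A group of neighbouring genes on chromosome 9 was low in MiaPaca2. CDKN2A, which encodes the cell cycle inhibitors p16 and ARF, stood at -3.73 and -3.32 in MiaPaca2, against 1.61 and 0.94 in HT29. MTAP, the methionine salvage enzyme gene beside it, was at -3.61 and -3.44 in MiaPaca2, against 1.63 and 1.22 in HT29. Both were far below the reference in MiaPaca2 and above it in HT29, with limma differences of -4.79 (SE 0.282, adjusted p = 1.094e-05) and -4.95 (SE 0.234, adjusted p = 5.423e-06). TUSC1 and KLHL9, which lie further out on either side of this pair, differed by -4.10 and -2.97, with the features of KLHL9 from -5.80 to -0.13. The second inhibitor gene CDKN2B differed by -1.57, but its 2 features gave -3.04 and -0.10. The feature of CDKN2A-AS1, the antisense gene, gave a difference of only -0.15 (limma, adjusted p = 0.675). Between and beyond these genes, the interferon genes IFNA2, IFNA6 and IFNA8 and the genes DMRTA1, ELAVL2, PLAA and IFT74 did not pass the test. IFNE, MIR31HG, CAAP1 and LRRC19 were called lower, with differences of -2.84, -1.89, -1.35 and -1.19. Without a media label, the MiaPaca2 array read -3.87 for CDKN2A and -4.44 for MTAP, near the labelled arrays. Of 22 cell cycle inhibitors and tumour suppressors measured, 6 were called lower (27.3%) and 4 higher (18.2%), beside 14.5% and 17.4% over all genes. SMAD4, the shared mediator of TGF-beta signals, was higher in MiaPaca2 by 2.22, as was the stress kinase gene PLK2 by 2.49. SFN, an epithelial cell cycle checkpoint gene, differed by -2.09.

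**Figure D1:**
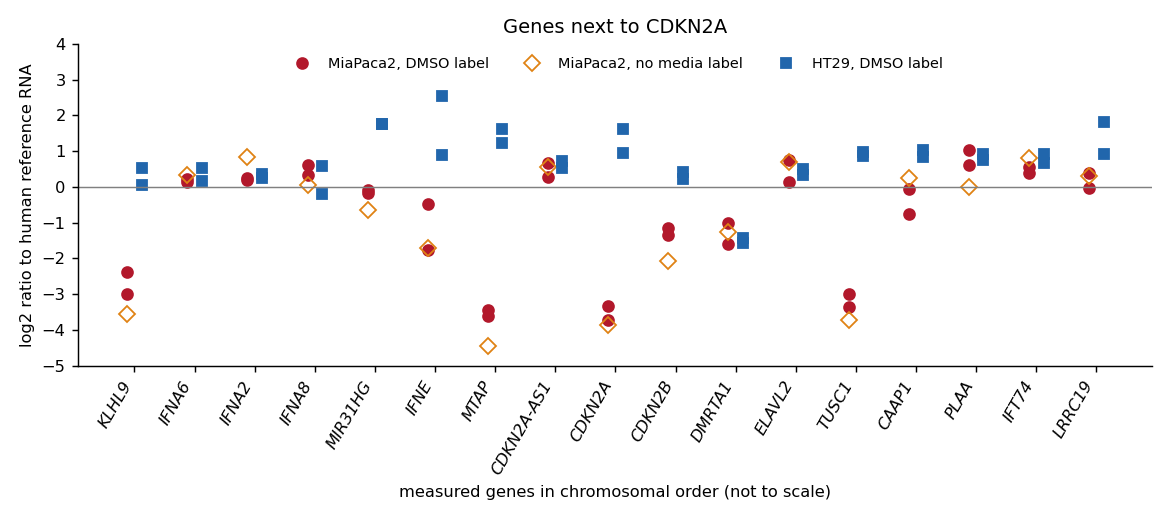
Log2 ratio to the human reference RNA of the measured genes next to CDKN2A, in chromosomal order and not to scale, with 1 point per array (filled circles, MiaPaca2 with the DMSO label; open diamonds, MiaPaca2 without a media label; squares, HT29 with the DMSO label). KLHL9, MTAP, CDKN2A and TUSC1 lie below -2 on every MiaPaca2 array and above 0 on both HT29 arrays, while several genes between them lie near 0 in both lines.

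Some of the lowest differences were among secreted proteins of goblet and other mucosal cells and the enzymes that decorate mucins with sugars. LYZ, which encodes the antibacterial enzyme lysozyme, had log2 ratios of -4.08 and -3.65 in MiaPaca2, against 4.46 and 4.84 in HT29. AGR2, a folding enzyme of mucin production, was at -4.24 and -3.82 in MiaPaca2 and at 3.53 and 3.51 in HT29. Its relative AGR3 stood at -3.23 and -2.77 in MiaPaca2, against 4.63 and 2.35 in HT29. In each case MiaPaca2 lay well below the reference and HT29 well above it. SPINK1, a trypsin inhibitor made by pancreatic acinar and gut cells, was at -1.80 and -1.17 in MiaPaca2, against 5.90 and 5.27 in HT29. The limma differences of the 4 genes ran from -8.51 for LYZ (SE 0.253, adjusted p = 1.891e-06) to -6.50 for AGR3 (SE 0.612, adjusted p = 0.0001222). Further secreted products of goblet cells, TFF3, REG4 and SPINK4, differed by -3.40, -3.21 and -3.23, of which SPINK4 kept its size but lost its call without MiaPaca2 replicate 1 (-3.04).

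Few mucin genes took part. MUC13, a mucin of the cell membrane, stood at -0.99 and -1.42 in MiaPaca2, against 4.63 and 3.93 in HT29, and MUC20 differed by -3.59. The gel-forming mucin genes MUC2 and MUC5AC lay near the reference in both lines and differed by -0.40 and -0.44 without passing (limma, adjusted p = 0.2083 and 0.2339). MUC1 went the other way by 1.62, a call lost without HT29 replicate 4 (1.38). Of 37 measured mucin and goblet genes, 13 were called lower (35.1%) and 1 higher, with a median difference of -0.40 beside 0.03 over all genes. Among the secreted products of this list, CLCA1, ITLN1, ZG16 and TFF1 did not pass, with differences of 0.03, 0.31, 0.61 and -0.19.

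GALNT3, whose enzyme places the first sugar of mucin-type chains, had the lowest difference among the 15 leading lower genes. It stood at -5.57 and -4.89 in MiaPaca2, against 3.98 and 4.36 in HT29, a difference of -9.40 (SE 0.402, limma, adjusted p = 3.75e-06). The related gene GALNT14 was at -4.11 and -3.94 in MiaPaca2, against 2.11 and 2.28 in HT29. GCNT3, a branching enzyme of mucin chains, was at -2.20 and -2.10 in MiaPaca2 and at 4.21 and 3.66 in HT29. B3GNT3, which lengthens such chains, differed by -4.81. Of 46 glycosyltransferase genes 16 were called lower (34.8%) and 4 higher, with a median of -0.22. The lower ones reached into the terminal steps, with the fucosyltransferase gene FUT1 at -2.99 and the sialyltransferase gene ST3GAL1 at -2.58. The 4 higher genes were GCNT2, which makes I-type branches, by 2.49, and GALNT1, GALNT2 and GALNT10, by 1.61, 1.37 and 0.82, of which GALNT10 lost its call under some alternatives. GALNT1 and GALNT2 encode transferases found in most tissues. Members of the GALNT family were called in both directions. HS3ST1, a heparan sulphate sulphotransferase outside the list, was at -2.66 and -1.99 in MiaPaca2, against 4.71 and 4.30 in HT29.

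**Figure D2:**
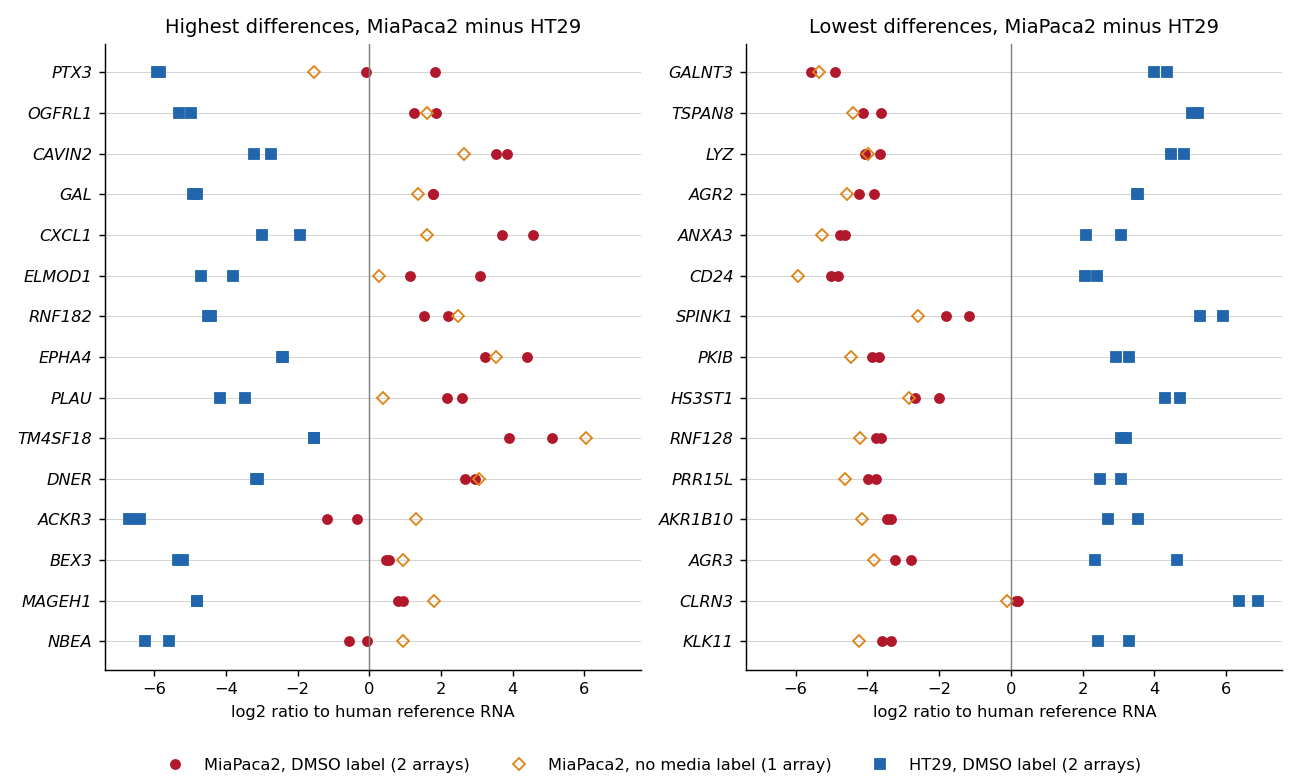
Log2 ratio to the human reference RNA of the 15 genes with the highest and the 15 with the lowest difference outside the epithelial and mesenchymal lists, with 1 point per array (circles, MiaPaca2 with the DMSO label; diamonds, MiaPaca2 without a media label; squares, HT29 with the DMSO label). No gene has overlapping DMSO-labelled arrays, and the array without a media label lies on the MiaPaca2 side of every gene.

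Transcription factor genes of gut and pancreas were lower in MiaPaca2 for 17 of 38 measured members (44.7%) and higher for 4 (10.5%), with a median of -0.62. GATA6, a factor of endodermal tissues, was at -2.38 and -3.25 in MiaPaca2, against 2.49 and 2.98 in HT29. FOXA1, which opens chromatin in epithelial lineages, was at -3.54 and -3.67 in MiaPaca2 and at 0.58 and 2.17 in HT29. KLF5, a factor of crypt cells, stood at -1.60 and -1.72 in MiaPaca2, against 3.34 and 3.19 in HT29. The 3 genes thus fell below the reference in MiaPaca2 and lay above it in HT29, with limma differences of -5.55 (SE 0.32), -4.99 (SE 0.468) and -4.92 (SE 0.21). HNF4G, PPARG, ELF3 and FOXA2 followed at -3.20, -3.39, -3.37 and -2.65. The secretory lineage factor gene SPDEF differed by -2.36, while ATOH1, another such gene, differed by -0.20 without passing (limma, adjusted p = 0.5768). RFX6 had 0.20 and -0.95 in MiaPaca2, against the widely spread 1.98 and 5.64 in HT29, and its call was lost without either MiaPaca2 array (-4.76 and -3.60). The higher members were TFCP2L1 by 2.40 and 3 genes of the GATA family, GATA4 by 2.05 and, more weakly, GATA5 and GATA2 by 1.13 and 0.91, both lost under at least 1 alternative. SOX9, a factor of ducts and crypts, stood above the reference on every array, at 2.35 and 2.23 in MiaPaca2 and at 1.20 and 2.03 in HT29, and did not pass (limma, adjusted p = 0.1182).

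Genes of absorptive cells showed the same direction. Of 60 measured members 28 were called lower (46.7%) and 4 higher (6.67%), with a median of -0.99. Among brush border genes, DPP4, a peptidase, was at -1.71 and -1.77 in MiaPaca2, against 2.48 and 2.52 in HT29. LGALS4, a sugar-binding lectin, was at -0.41 and 0.13 in MiaPaca2 and at 4.19 and 3.78 in HT29. Of 23 brush border genes 12 were lower and none higher, and the scaffold gene USH1C differed by -2.83. CEACAM6, an adhesion gene with close relatives, had -1.83 and -0.88 in MiaPaca2, against 5.22 and 1.24 in HT29, and without MiaPaca2 replicate 1 its difference of -4.11 was no longer called. CEACAM5 overlapped between the lines.

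Ion channel genes went both ways. KCNE3, a subunit of the potassium channel of crypt cells, stood at -2.00 and -1.51 in MiaPaca2, against 5.08 and 4.00 in HT29. Its partner gene KCNQ1 differed by -1.95. CFTR, the chloride channel gene, averaged -1.44 and -1.25 in MiaPaca2, against 3.50 and 3.34 in HT29, although its 11 features gave differences from -5.77 to 0.41. The potassium channel gene KCNK1 differed by -5.68, and the glucose transporter gene SLC5A1 and the iron exporter gene SLC40A1 by -3.53 and -3.17. Opposite to these, KCNN4, a calcium-gated potassium channel, was at 2.24 and 2.56 in MiaPaca2, against -2.42 and -2.72 in HT29, a difference of 4.97 (SE 0.239, limma, adjusted p = 5.45e-06). The phosphate transporter gene SLC20A1 was higher by 3.68 and the potassium channel gene KCNK5 by 2.38.

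Tetraspanins, which organise proteins in the cell membrane, and their look-alikes of the TM4SF family included members far apart in both directions. TSPAN8, often studied in tumours of the digestive tract, stood at -4.13 and -3.62 in MiaPaca2, against 5.21 and 5.06 in HT29, a difference of -9.02 (SE 0.244, limma, adjusted p = 1.603e-06). TM4SF4 was at -0.44 and 2.29 in MiaPaca2 and at 6.86 and 6.31 in HT29. TM4SF18 went the other way, with 3.90 and 5.10 in MiaPaca2 against -1.53 and -1.55 in HT29. TSPAN6 and TSPAN13 differed by -4.78 and -4.58, and CD82, known as a metastasis suppressor, by -2.10. In all 11 of 30 were lower (36.7%) and 3 higher (10%), with a median of -0.55. CD9, CD63 and CD81, which mark small vesicles, did not pass, with differences of -0.11, -0.73 and -0.32. CD24, an anchored sialoglycoprotein of epithelial cells, belonged to another list and stood at -4.82 and -5.01 in MiaPaca2, against 2.07 and 2.40 in HT29. The rest of that list of adhesion genes was mixed, with 6 of 29 lower and 6 higher (20.7% each). Over all genes 14.5% were lower and 17.4% higher. The higher ones were led by CD99, a T-cell adhesion antigen, by 2.86 and by the protocadherin gene PCDH9 by 2.53.

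The listed serine proteases, of the cell surface or secreted, were called lower for 10 of 17 members. The serpins and other inhibitors listed with them were called equally in both directions. KLK11, a kallikrein, stood at -3.33 and -3.59 in MiaPaca2, against 3.31 and 2.43 in HT29. TMPRSS4 was at -2.39 and -2.40 in MiaPaca2 and at 2.18 and 2.23 in HT29. Matriptase (ST14) and its inhibitors SPINT1 and SPINT2 differed by -2.88, -4.21 and -3.06, so that the enzyme and both inhibitors were lower. PLAU, which encodes urokinase, the activator of plasminogen, was at 2.60 and 2.17 in MiaPaca2, against -3.48 and -4.15 in HT29, a difference of 6.20 (SE 0.305, limma, adjusted p = 5.689e-06). Besides the 10 lower proteases (58.8%) 2 were higher, PLAU and the other plasminogen activator gene PLAT by 1.04, which was below the reference on all 4 arrays. The 20 inhibitors were split, with 6 higher and 6 lower (30% each), and their median of 0.20 turned to below 0 with quantile normalization. SERPINB5 (maspin) was at -3.40, while SERPINB8 and SERPINB9 were higher by 2.09 and 2.06.

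Matrix enzymes followed no shared direction. MMP7, a metalloproteinase of epithelial glands, was at -0.94 and -0.36 in MiaPaca2, against 5.60 and 4.95 in HT29, a difference of -5.93 (SE 0.304). MMP11, usually made by stroma, was higher by 2.96, and the inhibitor genes TIMP2 and TIMP1 by 3.40 and 2.21. Of 22 genes 5 were higher (22.7%) and 3 lower (13.6%), beside 17.4% and 14.5% over all genes. Among 18 genes of the S100 list, small calcium-binding proteins and the gene of a binding partner, S100PBP, S100P alone differed by more than 2 units, with -3.65 and -3.71 in MiaPaca2 against 1.97 and 1.73 in HT29. ANXA3, another calcium-binding gene, was at -4.76 and -4.62 in MiaPaca2 and at 3.06 and 2.10 in HT29.

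Metallothioneins, small proteins that bind zinc and copper, were higher in MiaPaca2 for most members. MT2A had log2 ratios of 2.13 and 1.68 in MiaPaca2, against -3.71 and -3.20 in HT29. MT1X stood at 1.79 and 1.96 in MiaPaca2, against -2.23 and -2.16 in HT29. MT1G was at 1.66 and 1.86 in MiaPaca2 and at -2.25 and -2.22 in HT29. The same pattern, above the reference in MiaPaca2 and below it in HT29, held for MT1B and MT1H, with differences of 4.33 and 3.97. MT2A differed by 5.36 (SE 0.266, limma, adjusted p = 5.754e-06). MT1M and MT1E were higher by 2.28 and 2.21, from HT29 levels near or above the reference. MT1F was below the reference in both lines and overlapped, and MT3, the brain form, differed by -0.59 without passing (limma, adjusted p = 0.1191). Of the 10 genes measured, 7 were higher (70%) and none lower, with a median of 3.13. The members called are so alike in sequence that probes may read several of them, and their calls are not independent. MTF1, the metal-sensing factor that switches these genes on, is counted among the 10 and differed by 0.41 without passing (limma, adjusted p = 0.2026).

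The promoters of 4 of these genes are printed to show how the family shares its metal response elements. The RefSeq table (GRCh38.p14) gave the 250 bases before the start of MT2A at chr16:56608334-56608583, MT1X at chr16:56682220-56682469, MT1H at chr16:56669564-56669813 and MT1B at chr16:56651636-56651885, all on the plus strand. Capitals mark the core of the element, TGCACNC or TGCGCNC on either strand.
MT2A: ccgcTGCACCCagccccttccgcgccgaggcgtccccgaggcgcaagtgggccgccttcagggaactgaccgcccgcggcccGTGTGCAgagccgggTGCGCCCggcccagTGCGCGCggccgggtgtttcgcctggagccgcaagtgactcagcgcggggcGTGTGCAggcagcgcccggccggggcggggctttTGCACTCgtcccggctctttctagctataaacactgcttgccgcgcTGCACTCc
MT1X: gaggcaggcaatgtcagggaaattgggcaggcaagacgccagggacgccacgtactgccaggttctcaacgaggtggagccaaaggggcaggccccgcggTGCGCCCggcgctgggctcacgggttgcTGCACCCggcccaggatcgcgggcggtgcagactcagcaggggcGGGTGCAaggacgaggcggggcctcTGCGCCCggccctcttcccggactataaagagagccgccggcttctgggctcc
MT1H: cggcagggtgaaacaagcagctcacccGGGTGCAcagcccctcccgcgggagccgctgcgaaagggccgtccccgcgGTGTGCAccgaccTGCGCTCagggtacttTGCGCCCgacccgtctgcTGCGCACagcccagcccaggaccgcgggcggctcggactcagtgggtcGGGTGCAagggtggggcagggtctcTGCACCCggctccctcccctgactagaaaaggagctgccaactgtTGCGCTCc
MT1B: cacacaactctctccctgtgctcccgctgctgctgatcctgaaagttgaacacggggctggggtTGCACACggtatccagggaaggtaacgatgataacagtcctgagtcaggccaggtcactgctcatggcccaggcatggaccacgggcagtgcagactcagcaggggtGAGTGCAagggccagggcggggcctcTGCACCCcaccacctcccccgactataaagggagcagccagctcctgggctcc
The core occurred 7 times before MT2A, 4 times before MT1X, 8 times before MT1H and 3 times before MT1B. At least 1 core was present in 24.8% of the 35116 promoters of the same length, and 4 or more in 0.37%. A match describes letters and not binding.

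**Figure D3:**
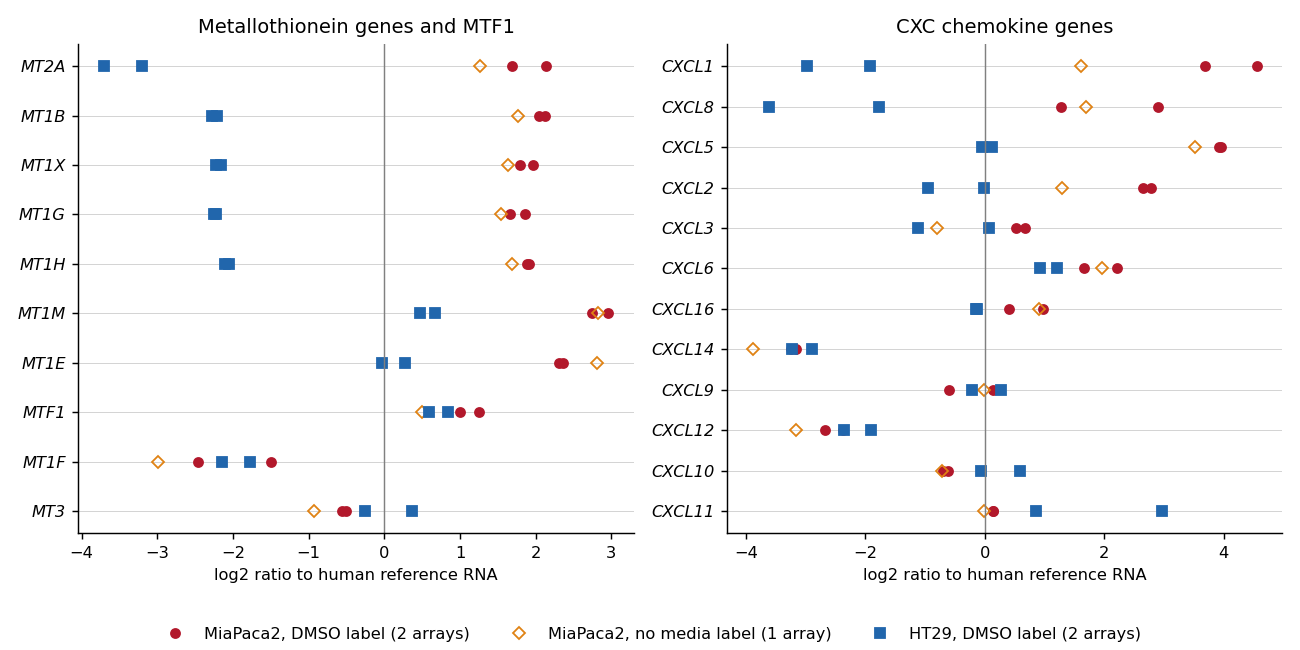
Log2 ratio to the human reference RNA of the metallothionein genes with MTF1 (left) and of the CXC chemokine genes (right), ordered by difference, with 1 point per array (circles, MiaPaca2 with the DMSO label; diamonds, MiaPaca2 without a media label; squares, HT29 with the DMSO label). 7 metallothionein genes lie above 1 on all MiaPaca2 arrays and below 1 on both HT29 arrays, and the CXC chemokine genes run from CXCL1, far higher in MiaPaca2, to CXCL11, lower in MiaPaca2.

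Other genes of redox defence were divided. AKR1B10, a carbonyl-reducing enzyme, stood at -3.35 and -3.45 in MiaPaca2, against 3.55 and 2.71 in HT29. GPX2, the gut glutathione peroxidase, was at -1.90 and -1.54 in MiaPaca2 and at 3.30 and 3.25 in HT29. NOX1, the superoxide-making oxidase of the colon, was near the reference in MiaPaca2 at 0.37 and 0.49 and high in HT29 at 3.66 and 4.05. Of 39 redox genes 13 were lower (33.3%) and 10 higher (25.6%), beside 14.5% and 17.4% over all genes. The higher ones included GPX8, a peroxidase of the endoplasmic reticulum, by 3.79, and GSTM1 and GSTM3 by 2.96 and 2.74, members of a gene cluster with near-identical copies. HMOX1, which breaks down haem, was higher by 2.18, but its call was lost when the 3 MiaPaca2 arrays formed a single group (1.58).

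Genes of drug metabolism were more often called lower than higher. The steroid- and drug-oxidising CYP3A4 stood at -1.72 and -1.29 in MiaPaca2, against 3.39 and 3.43 in HT29. UGT1A6, which attaches glucuronic acid, was at -1.70 and -1.25 in MiaPaca2 and at 4.02 and 3.86 in HT29, and UGT1A8, which shares exons with it, differed by -4.35. ALDH2, which clears acetaldehyde, was at -3.96 and -3.66 in MiaPaca2, against 1.13 and 1.23 in HT29. The list's median was -0.46, and of its 50 genes 17 were lower (34%) and 6 higher (12%). Among exporters, ABCC3 and ABCG2 differed by -4.33 and -3.84, whereas ABCC2 was higher by 4.14, at 0.90 and -0.30 in MiaPaca2 against -3.59 and -4.09 in HT29. ABCG2 read 0.57 on the MiaPaca2 array without a media label, nearer to HT29. ALDH1A3, which makes retinoic acid, was higher by 2.56, and so was CYP26B1, which degrades it, by 2.04.

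Lipid genes were called in both directions. Of 39 fatty acid and lipoprotein genes 9 were higher (23.1%) and 10 lower (25.6%). ELOVL5 and FADS1, which lengthen and desaturate polyunsaturated fatty acids, were higher in MiaPaca2. ELOVL5 stood at 0.82 and 1.15 in MiaPaca2, against -3.13 and -3.31 in HT29, and FADS1 differed by 3.65. ACSL5, a fatty acid activating enzyme of enterocytes, was at -2.54 and -2.40 in MiaPaca2 and at 2.47 and 2.20 in HT29. Of 22 genes that release arachidonic acid or act on prostaglandins 8 were called lower (36.4%) and 2 higher (9.09%). PLAAT3 and PLA2G4A differed by -4.53 and -3.50, the cyclooxygenase genes PTGS1 and PTGS2 by -2.16 and -2.02, and HPGD, which inactivates prostaglandins, by -3.46. PTGES, the synthase of prostaglandin E2, went the other way by 2.71. In all 18 of 61 lipid genes were lower (29.5%) and 11 higher (18%). Of 31 hypoxia and glycolysis genes 6 were higher (19.4%) and 3 lower (9.68%), beside 17.4% and 14.5% over all genes. One outlier was LDHB, the heart-type lactate dehydrogenase gene, at -5.06 and -5.52 in MiaPaca2 against -0.12 and -0.16 in HT29. The other was FBP1, a gluconeogenic enzyme gene, which differed by -4.93.

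Of 23 chemokine genes 9 were called higher in MiaPaca2 (39.1%) and 4 lower (17.4%), beside 17.4% and 14.5% over all genes. The highest differences were those of chemokines that attract neutrophils. CXCL1 had log2 ratios of 3.69 and 4.57 in MiaPaca2, against -1.92 and -2.98 in HT29. CXCL8 (interleukin-8) stood at 2.91 and 1.28 in MiaPaca2, against -1.78 and -3.62 in HT29. CXCL5 was at 3.93 and 3.96 in MiaPaca2 and at -0.04 and 0.12 in HT29. These 3 genes were clear of overlap on every array, with limma differences of 6.58 (SE 0.417, adjusted p = 1.48e-05), 4.80 (SE 0.676, adjusted p = 0.001072) and 3.90 (SE 0.233, adjusted p = 1.143e-05). CXCL2 was higher by 3.20. CXCL3 and CXCL6, higher by 1.12 and 0.87, lost their calls without HT29 replicate 4 (0.53 and 0.73). CXCL10 and CXCL11, chemokines induced by interferon, differed by -0.91 and -1.78, and both calls were lost without HT29 replicate 2 (-0.58 and -0.72). CXCL1, CXCL2 and CXCL3 are close copies, so a probe of 1 may read another.

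The promoters of 4 of these genes are shown because members of both directions hold the same binding motif of NF-kappa B, the inflammatory factor. They were taken from the same table, before the starts of CXCL1 at chr4:73869143-73869392 and CXCL8 at chr4:73740319-73740568 on the plus strand, and of CXCL5 at chr4:73998678-73998927 and CXCL11 at chr4:76036071-76036320 on the minus strand. Capitals mark the motif GGAATTTCC or its reverse complement.
CXCL1: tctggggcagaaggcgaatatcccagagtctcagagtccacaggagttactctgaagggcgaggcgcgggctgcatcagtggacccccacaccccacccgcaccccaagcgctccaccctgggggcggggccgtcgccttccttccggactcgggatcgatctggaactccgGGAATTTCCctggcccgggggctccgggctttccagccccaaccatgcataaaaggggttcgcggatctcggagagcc
CXCL8: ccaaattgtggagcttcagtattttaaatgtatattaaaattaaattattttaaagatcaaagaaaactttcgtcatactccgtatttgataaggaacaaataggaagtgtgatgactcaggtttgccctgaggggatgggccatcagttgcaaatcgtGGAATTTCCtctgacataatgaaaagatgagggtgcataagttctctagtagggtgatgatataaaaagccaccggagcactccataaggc
CXCL5: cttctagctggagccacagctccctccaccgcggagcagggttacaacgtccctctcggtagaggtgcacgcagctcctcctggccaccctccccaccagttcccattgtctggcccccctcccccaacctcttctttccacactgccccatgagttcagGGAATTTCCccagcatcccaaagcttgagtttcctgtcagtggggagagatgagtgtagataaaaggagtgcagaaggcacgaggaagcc
CXCL11: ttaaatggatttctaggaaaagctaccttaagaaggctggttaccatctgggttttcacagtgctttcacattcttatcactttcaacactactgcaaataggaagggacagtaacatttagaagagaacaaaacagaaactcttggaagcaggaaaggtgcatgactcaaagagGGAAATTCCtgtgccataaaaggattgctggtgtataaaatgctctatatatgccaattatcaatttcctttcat
This motif stood once in the window of CXCL1, CXCL2, CXCL3, CXCL5, CXCL6 and CXCL8, which were called higher, and once before CXCL10 and CXCL11, which were called lower. It was present in 0.413% of the 35116 promoters. Windows with the motif thus belonged to genes of both directions.

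Among other signals of inflammation, PTX3, a secreted pattern recognition protein, had the highest difference among the 15 leading higher genes. It stood at 1.84 and -0.10 in MiaPaca2, against -5.83 and -5.92 in HT29, a difference of 6.75 (SE 0.546, limma, adjusted p = 5.469e-05), with its 10 features between 6.59 and 7.01. The MiaPaca2 array without a media label was lower, at -1.55. IL1B, the interleukin-1 beta gene, was at 3.36 and 1.05 in MiaPaca2, against -1.43 and -2.19 in HT29, and at -1.05 on the MiaPaca2 array without a media label, nearer to HT29. Its difference of 4.02 was 2.93 and not called when the 3 MiaPaca2 arrays formed a single group. IL18, a cytokine of gut epithelium, went the other way, with -2.80 and -2.53 in MiaPaca2 against 2.20 and 1.46 in HT29. The colony-stimulating factor genes CSF3 and CSF1 were higher by 1.92 and 1.65. Of 17 pentraxin and complement genes 4 were higher (23.5%) and 2 lower (11.8%), beside 17.4% and 14.5% over all genes. The protease gene C1S was higher by 3.49.

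Cytokine receptor genes differed in both directions. ACKR3, which scavenges the chemokine CXCL12, stood at -1.17 and -0.35 in MiaPaca2, against -6.41 and -6.69 in HT29. CXCR4, the signalling receptor of the same chemokine, was at -4.37 and -4.68 in MiaPaca2 and at -1.56 and -0.91 in HT29. The 2 receptor genes thus went in opposite directions while CXCL12 itself differed by -0.39 without passing (limma, adjusted p = 0.2672). IL22RA1 and IL20RA, receptor genes of epithelial cytokines, differed by -5.19 and -4.44. LIFR and OSMR, receptors of the interleukin-6 family, were higher by 3.49 and 2.45, and IL1R1, the interleukin-1 receptor, by 2.51. The death receptor genes TNFRSF10A and TNFRSF10B were higher by 2.02 and 2.05, and the gene of their ligand, TNFSF10, was lower by a difference of -2.72. On the MiaPaca2 array without a media label TNFSF10 read 1.31, LIFR -2.33 and OSMR -1.13, all nearer to HT29. The 72 chemokine, cytokine and receptor genes had a median of 0.31, with 27 called higher (37.5%) and 15 lower (20.8%).

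Genes induced by interferon were more often called lower than higher in MiaPaca2. IFI27 stood at -2.22 and -1.50 in MiaPaca2, against 2.99 and 2.60 in HT29. BST2 (tetherin), which holds viruses at the cell surface, was at -3.49 and -3.04 in MiaPaca2 and at -0.13 and 0.01 in HT29. Of 31 such genes 12 were lower (38.7%) and 3 higher (9.68%). SAMD9, IRF7, the master regulator of type I interferon, and OAS1 differed by -3.07, -2.45 and -2.31, whereas IFIT2 was higher by 2.18 and IFIT1 and IFIT3 did not pass. Of 15 MHC class I genes 3 were lower (20%) and 2 higher (13.3%), beside 14.5% and 17.4% over all genes. HLA-B and HLA-C differed by 0.35 and 0.69 without passing (limma, adjusted p = 0.3538 and 0.08372), and the peptide transporter gene TAP1 was higher by 1.82.

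Neuropeptide and secretory granule genes differed in both directions. GAL, which encodes galanin, stood at 1.78 and 1.79 in MiaPaca2, against -4.81 and -4.92 in HT29, a difference of 6.65 (SE 0.221, limma, adjusted p = 2.933e-06). SCG2, a granin of dense-core vesicles, was at 2.57 and 2.06 in MiaPaca2 and at -2.69 and -2.61 in HT29. NMU (neuromedin U) was at -0.45 and -0.59 in MiaPaca2, against -4.99 and -5.26 in HT29. CPE, a hormone-trimming carboxypeptidase, the vesicle sensor gene SYT1 and the granin gene CHGB were higher by 4.49, 3.85 and 2.87. Other granule genes were lower in MiaPaca2. DDC, which makes dopamine and serotonin, stood at -3.68 and -3.27 in MiaPaca2, against 3.16 and 1.46 in HT29, and the convertase gene PCSK5 and SYT13 differed by -4.73 and -4.07. EDN1, the vasoconstrictor endothelin-1, differed by -3.70. The counts were equal, 10 of 58 higher and 10 lower (17.2% each), close to the shares over all genes, and CHGA, the general marker of such cells, did not pass (limma, adjusted p = 0.221).

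Growth factor genes differed in both directions too. VEGFC, the factor of lymphatic vessels, stood at 0.90 and 0.78 in MiaPaca2, against -4.50 and -4.80 in HT29, and ANGPTL4, a secreted lipase inhibitor, at 0.74 and 0.69 in MiaPaca2 against -4.16 and -4.16 in HT29. FGF2 was higher by 3.63, although its 11 features ran from -0.15 to 4.40. TGFA, a ligand of the EGF receptor, was at -1.41 and -1.96 in MiaPaca2, against 2.47 and 2.58 in HT29. The stem cell factor gene KITLG differed by -3.73. Of 34 ligands 10 were higher (29.4%) and 6 lower (17.6%). Among 35 receptors 11 were higher (31.4%) and 6 lower (17.1%), beside 17.4% and 14.5% over all genes. MET, the receptor of hepatocyte growth factor, stood at -1.41 and -2.69 in MiaPaca2, against 1.36 and 1.54 in HT29, and its relative MST1R differed by -2.36. AXL, DDR2 and FGFR1, receptors common in mesenchymal cells, were higher by 2.52, 2.83 and 2.30, although DDR2 read -0.78 on the MiaPaca2 array without a media label, nearer to HT29. EGFR and ERBB2 differed by 0.60 and 0.48 without passing (limma, adjusted p = 0.07306 and 0.4551).

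Eph receptors, which read ephrins on neighbouring cells, were led by EPHA4. It stood at 3.23 and 4.41 in MiaPaca2 against -2.40 and -2.44 in HT29, a difference of 6.24 (SE 0.357, limma, adjusted p = 9.809e-06). EPHA8, EPHA7 and EFNB3 were called higher too, but their features went both ways. These ran from -0.37 to 3.50, from -1.02 to 4.32 and from -0.41 to 2.37. EPHA1, EPHB3, a receptor of gut crypts, and the ligand gene EFNB2 differed by -2.99, -2.33 and -2.37, and 5 of 20 genes were called in each direction, or 2 higher without HT29 replicate 4.

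Genes that report on the MAP kinase cascade were called higher in MiaPaca2 for 15 of 26 members (57.7%) and lower for 4 (15.4%), with a median of 1.07. SPRY2, a feedback inhibitor, stood at 1.99 and 2.27 in MiaPaca2, against -0.41 and -0.45 in HT29. EGR1, an early response factor, was at -1.59 and -1.41 in MiaPaca2 and at -4.16 and -3.41 in HT29. SPRY4, JUN, FOSL1 and MYC were higher by 1.78, 1.85, 1.62 and 1.40, with the 12 features of MYC from -0.56 to 1.75. The phosphatase gene DUSP6, often read as a gauge of this cascade, had -1.11 and -3.08 in MiaPaca2 against -0.47 and -0.11 in HT29, and its difference of -1.80 fell to -0.82 without MiaPaca2 replicate 2, with the call lost. SPRED1, another inhibitor, differed by -1.97. Only 1 gene was called lower without MiaPaca2 replicate 2, HT29 replicate 2 or HT29 replicate 4, while 12 to 15 were called higher without any 1 of the 4 arrays. With the 3 MiaPaca2 arrays as a single group 10 were called higher. On the MiaPaca2 array without a media label 7 of the 19 called genes (36.8%) lay nearer to HT29, among them JUN at -1.80 and DUSP5 at -1.82, against 24.1% of all called genes, and the part of the media label in these calls was not tested.

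Ligands of the TGF-beta and BMP family differed in both directions. BMP4, which restrains crypt growth, stood at -2.90 and -2.59 in MiaPaca2, against 2.48 and 2.50 in HT29, and BMP2 differed by -3.63. INHBB, BMP6 and BMP7 were higher by 2.60, 2.54 and 2.52. The receptor gene TGFBR2 was at -2.53 and -1.98 in MiaPaca2 and at 0.80 and 1.08 in HT29. NOG, which encodes the BMP trap noggin, was at 2.41 and 2.39 in MiaPaca2, against -0.64 and -0.85 in HT29, but at 0.28 on the MiaPaca2 array without a media label. The BMP target gene ID3 was higher by 2.24. The family had a median of 0.32, and of its 53 genes 20 were called higher (37.7%) and 9 lower (17%).

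Wnt genes were called in both directions. The frizzled receptor genes FZD8, FZD2 and FZD3 were higher in MiaPaca2 by 2.98, 2.94 and 2.92, and the ligand gene WNT3 by 2.70, although WNT3 read -0.89 on the MiaPaca2 array without a media label, nearer to HT29. The receptor genes FZD6, FZD5 and LRP5 were lower, with differences of -1.25, -1.18 and -1.33. FZD8 stood at 0.15 and -0.65 in MiaPaca2, against -3.71 and -2.74 in HT29. Among targets and feedback genes, RNF43, which removes frizzled receptors, was at -1.42 and -3.08 in MiaPaca2, against 1.83 and 2.15 in HT29. AXIN2, the most used reporter of the pathway, was at -1.61 and -1.04 in MiaPaca2 and at 1.33 and 1.42 in HT29, and SP5 differed by -2.93. In counts, 10 of 23 ligands and receptors were higher (43.5%) and 4 lower (17.4%). Of 23 targets and feedback genes 4 were lower (17.4%) and 2 higher (8.7%), APCDD1 by 2.81 and CD44 by 2.77. Over all genes 17.4% were higher and 14.5% lower. LGR5, the stem cell receptor, overlapped between the lines. Of 22 Notch genes 8 were higher (36.4%) and 3 lower (13.6%). The receptor gene NOTCH2, the ligand gene DLL1 and the target gene HEYL were higher by 2.68, 2.13 and 2.26. The target gene HES1 was lower by a difference of -1.11. DNER, a Notch ligand-like gene of neurons outside the list, stood at 2.96 and 2.67 in MiaPaca2, against -3.11 and -3.17 in HT29.

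Receptors coupled to G proteins were called in both directions. Of 43 measured, 17 were higher (39.5%) and 12 lower (27.9%). Their median was 0.51, and without HT29 replicate 4 the higher genes numbered 9. F2R, the thrombin receptor, stood at 2.87 and 3.39 in MiaPaca2, against -1.37 and -0.91 in HT29. LPAR3 and S1PR5, receptors of lysophospholipids, were higher by 3.91 and 3.39, and the adenosine receptor gene ADORA2B by 3.56. ADGRF1, an adhesion receptor, was at -0.43 and 0.11 in MiaPaca2, against 4.98 and 4.20 in HT29, and VIPR1, the receptor of vasoactive intestinal peptide, differed by -3.56.

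Guidance cues were mixed. SEMA3A, a repellent of axons, stood at 2.82 and 3.16 in MiaPaca2, against -0.51 and -0.77 in HT29. ROBO1, the Slit receptor, was higher by 2.87, with its 2 features at 0.71 and 5.03, and NTN4, a netrin of basement membranes, differed by -3.80. Of 36 genes 11 were higher (30.6%) and 9 lower (25%).

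Genes of caveolae, small pits of the cell membrane built by caveolins and cavins, were more often called higher than lower in MiaPaca2. CAVIN2 stood at 3.54 and 3.83 in MiaPaca2, against -3.21 and -2.75 in HT29, a difference of 6.67 (SE 0.313, limma, adjusted p = 5.259e-06). CAV1, the main coat protein, was below the reference in both lines, at -0.62 and -1.61 in MiaPaca2 and at -4.06 and -4.43 in HT29. CAVIN3 and CAVIN1 were higher by 2.57 and 2.44, with the features of CAVIN3 from 0.21 to 4.93, while CAV2 differed by 0.03. In all 5 of 10 genes were higher (50%) and 1 lower. Among IGF-binding and matricellular genes, 12 of 30 were higher (40%) and 1 lower, or 7 and 3 with quantile normalization, where their median of 0.48 turned to -0.04. CCN1, a matricellular gene of growth and adhesion, was higher by 4.07 and THBS4 by 2.82.

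Integrins, receptors of the matrix, were lower for 6 of 22 genes (27.3%) and higher for 3 (13.6%), beside 14.5% and 17.4% over all genes. ITGA1, a collagen receptor chain, stood at -3.47 and -3.91 in MiaPaca2, against 0.43 and 0.82 in HT29, and the epithelial chain gene ITGB6 differed by -2.95. Of 29 HOX genes, position factors of the body axis, 6 were lower (20.7%) and 4 higher (13.8%), beside 14.5% and 17.4% over all genes. Among the called genes only HOXB2 and HOXC8 exceeded 2 units, by 2.89 and 2.22. Proliferation genes were higher for 12 of 36 members (33.3%) and lower for 2, none by 2 units or more, and the count of higher genes was 7 without MiaPaca2 replicate 2. MKI67, the usual marker of cycling cells, differed by 1.29 (limma, adjusted p = 0.003973), and the MiaPaca2 array without a media label read 0.42, nearer to HT29. Of 28 cancer-testis antigens 5 were higher (17.9%) and 1 lower (3.57%). Of 16 coagulation genes 3 were higher and 3 lower (18.8% each). With quantile normalization or without any of the 4 arrays no coagulation gene was called higher.

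**Figure D4:**
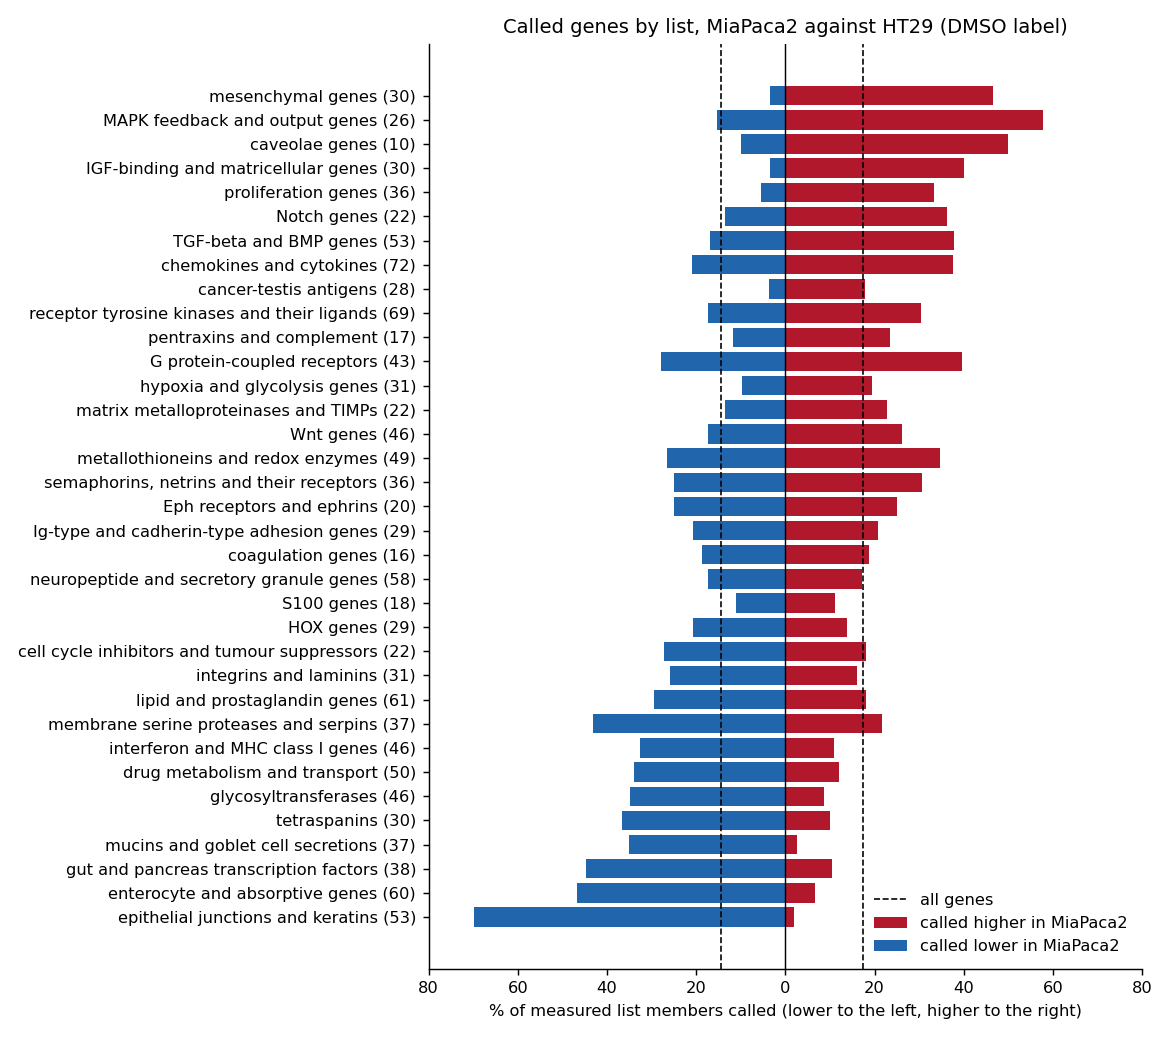
Percentage of the measured genes of each list, with their number in brackets, that were called higher (right) or lower (left) in MiaPaca2 than in HT29, ordered by the difference between both shares, with dashed lines at the shares over all genes (17.4% and 14.5%). The mesenchymal, MAPK and caveolae lists stand at the top of this order, with 46.7%, 57.7% and 50% called higher. The transcription factor, enterocyte and epithelial lists stand at the bottom, with 44.7%, 46.7% and 69.8% called lower. The lists were chosen with earlier results of these data known, so the order is a description and not a test.

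Several of the 30 leading genes lay outside the families above. OGFRL1, a relative of the opioid growth factor receptor, stood at 1.86 and 1.24 in MiaPaca2, against -4.96 and -5.30 in HT29. BEX3, linked to signalling of the nerve growth factor receptor, was at 0.46 and 0.55 in MiaPaca2 and at -5.34 and -5.21 in HT29. MAGEH1, a MAGE family gene of the X chromosome, was at 0.79 and 0.94 in MiaPaca2, against -4.81 and -4.81 in HT29. All 3 were above the reference on both MiaPaca2 arrays and far below it on both HT29 arrays. RNF182 and NBEA, both known from brain tissue, differed by 6.31 and 5.60, and ELMOD1, a regulator of small GTPases, by 6.36. In the other direction stood PKIB, a protein kinase A inhibitor, at -6.87, the ubiquitin ligase gene RNF128 at -6.82, PRR15L at -6.65 and CLRN3 at -6.45. CLRN3 was near the reference in MiaPaca2, at 0.16 and 0.20, and at 6.89 and 6.36 in HT29.

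Most large differences set the lines on opposite sides of the reference. The rule that selected these genes favours this, as it asks for a difference of at least 2 units and array medians lay near 0. Of the 754 higher genes 477 were above it in MiaPaca2 and below it in HT29, and of the 769 lower genes 542 were below it in MiaPaca2 and above it in HT29. The median log2 ratio of the higher genes was 0.75 in MiaPaca2 and -2.19 in HT29, and that of the lower genes -1.43 in MiaPaca2 and 1.59 in HT29.

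The remaining arrays show how far each side is shared. On the MiaPaca2 array without a media label 1389 of the 1523 large genes (91.2%) lay nearer to the labelled MiaPaca2 mean, and 134 (8.8%) nearer to HT29. Over all called genes 24.1% were nearer to HT29 there, so the share was smaller among large differences. The lists below were not matched for the size of their differences. The share was 0 for the called glycosyltransferase, mucin, tetraspanin and epithelial genes, among other lists, and above that of all genes for others, such as 50% of 10 HOX and of 6 coagulation genes, 46.2% of 13 IGF-binding and matricellular genes, 42.9% of 14 proliferation genes, 36.4% of 33 receptor tyrosine kinases and ligands and 33.3% of 15 mesenchymal genes. The exceptions with the widest differences included IL1B, ABCG2, LIFR and ELF3, the last at 0.80 against -2.72 and -2.00 on the labelled MiaPaca2 arrays. Of the called genes given above, BMP6, CAVIN1, CD68, CSF3, CXCL3, DLL1, DUSP5, FGFR1, GATA5, HMOX1, HOXC8, IFIT2, INHBB, JUN, KCNK5, MYC, PDGFRB and TAP1 also lay nearer to HT29 there. The media label and other differences between these arrays cannot be told apart.

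For 56 of the higher and 88 of the lower genes all 6 other lines lay nearer to HT29, and for 40 and 59 all 6 lay nearer to MiaPaca2. ACKR3 was of the first kind, with the other lines between -8.16 and -5.44. RNF128 was too, with the other lines between 0.34 and 3.83. AGR3 and SPINK1 were of the second kind, since the other lines lay between -4.13 and -1.30 for AGR3 and between -2.99 and 1.83 for SPINK1, while HT29 averaged 3.49 and 5.59. GALNT3 was above the reference in Capan2, HPAC, HPAFII and HCT-116, at 1.72 to 5.32, and below it in Panc1 and SW620, at -4.52 and -2.24. CXCL1 reached a MiaPaca2-like level in HPAC, at 3.94. Each of these lines except Panc1 had 1 array, so these are values without replicate error.

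**Figure D5:**
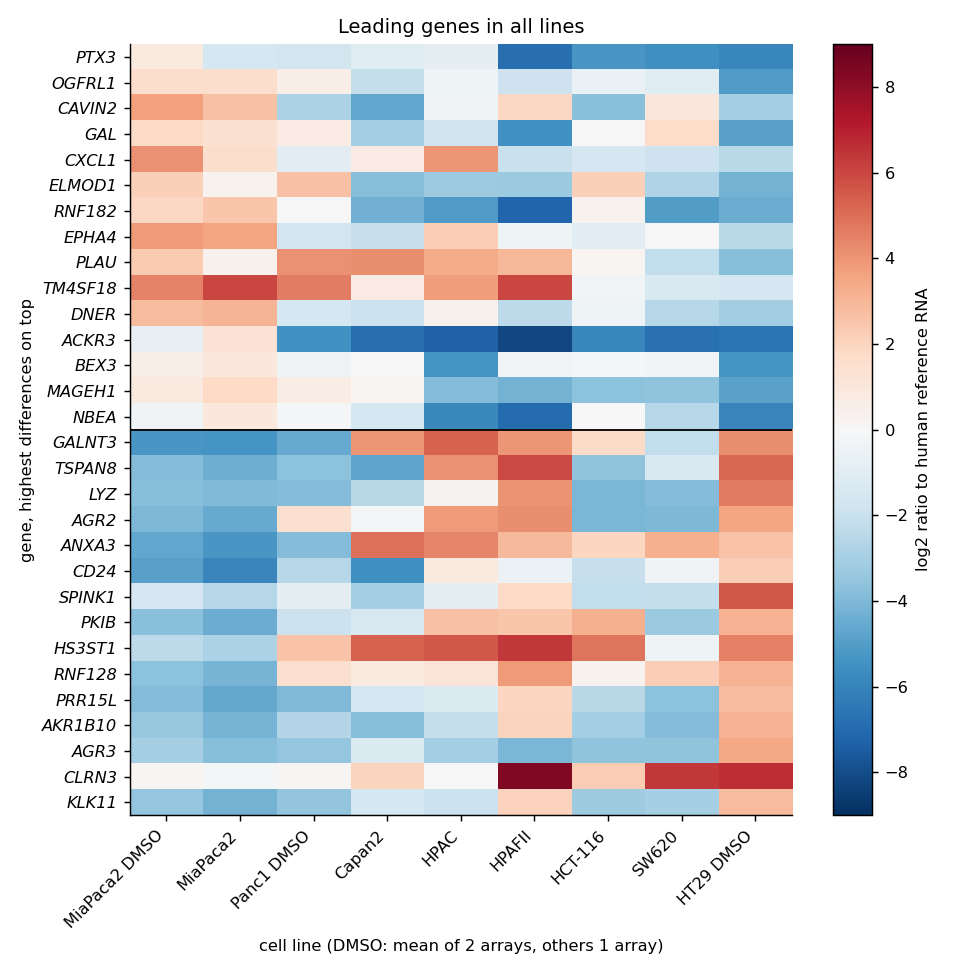
Log2 ratio to the human reference RNA, on a colour scale from -9 to 9, of the 15 genes with the highest difference (above the line) and the 15 with the lowest (below it), in columns from MiaPaca2 to HT29 with the other lines between them. Columns marked DMSO are means of 2 arrays and the others are single arrays. ACKR3 is highest in the 2 MiaPaca2 columns, and AGR3 and SPINK1 are highest in HT29.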

How the data were processed

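RNA of 8 established human tumour cell lines was measured on 12 arrays of 2 channels, with the cell line in Cy5 and a whole human reference RNA in Cy3, per the labels. The deposited values, from -10.708 to 9.607 with array medians of -0.001 to 0.042, were taken as log2 ratios of cell line over reference. Neither log base nor direction, background correction or normalization is given in the sources used here, and signal over background could not be assessed, so the number of arrays limits the precision. The table held 45220 features. A single gene symbol was paired with 31332, several symbols with 93 and no symbol with 13795, and gene IDs gave 31291 a current symbol. Averaging the features of each gene left 18334 genes, and 7759 rested on several features. No filter was set. The linear model of limma 3.58.1, moderated by eBayes and run in R 4.3.3, was fitted over all 12 arrays in 9 groups, with 3 residual degrees of freedom, and p-values were adjusted over all 18334 genes by the Benjamini-Hochberg method. The fit was tested on simulated data. Tables and figures were made with Python 3.11.15, pandas 2.3.3 and matplotlib 3.10.9.

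The genes named are the 15 highest and 15 lowest called genes without overlap, with all features in 1 direction and outside the epithelial and mesenchymal lists, up to 4 leading called genes a list and direction, 9 check genes and other list members with their values. Genes next to CDKN2A that are in no list, and HS3ST1, RNF182 and others among the 30, were named by position or rank. The members and the 36 lists, with 1313 of 1422 entries measured, were chosen with earlier results of these data known. Promoters are from the RefSeq table of GRCh38.p14. Alternatives were another centring, quantile normalization, another feature per gene, a filter on variation, robust moderation, other arrays or groups in the fit, the replicate number as a block, each array left out, and a minimum fold.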

Additional observations from a re-analysis of the deposited data

How the results depend on the processing

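The reported fit called 5851 genes, and centring, quantile normalization, feature choice, the filter, robust moderation and other sets of arrays gave 4883 to 6156. With a minimum fold of 2 in the test, 1509 genes were called, 770 higher and 739 lower, as that test asks for a larger difference. Leaving out 1 array gave 4194 to 5267 called genes, 2290 to 2840 higher and 1904 to 2427 lower, and 1503 to 1634 large ones, 740 to 817 higher and 728 to 829 lower. Where 1 array of a line was left, it was assumed to vary like the other groups. Large genes numbered 1367 to 2016 over all alternatives. The median difference of all genes was 0.03, and 0.0007 with quantile normalization. Replicate numbers were not used to pair the arrays. Deviations of same-numbered arrays from their group means correlated at -0.134, 0.144 and -0.00981. Any 2 groups shared only 1 number, so these values cannot decide whether arrays were paired. With the number as a block 4704 genes were called, 2520 higher and 2184 lower. Of 644 named genes and called list members none reversed under any alternative, 434 kept their side of the threshold under all but the minimum fold, and 210 did not; the cause was not tested.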
